A study of Mus musculus with 12 samples.

Results

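Autosomal gene expression was compared between stimulated CD4+ T cells that carried an Sry transgene and cells that did not, both with the sex chromosomes XY-. The compared libraries were 3 of XY-Sry and 3 of XY-, 6 of the 12 libraries in the series, chosen by their genotype labels. The symbol Y- stands for a Y chromosome from which Sry, the testis-determining gene, has been lost. In the XY-Sry mice Sry was supplied as a transgene on an autosome, chromosome 3 in this mouse model. All mice were of the SJL strain and were gonadectomized at 4 to 6 weeks of age. XY-Sry mice were labelled male and therefore castrated, while XY- mice were labelled female and ovariectomized, so that transgene and gonad type cannot be told apart in this comparison. Around surgery the mice of every group received carprofen (1.2 mg/mL, before surgery and 24 h after it), and then amoxicillin (50 mg/mL) in the water for 7 days. Lymph nodes were taken at 8 to 12 weeks, CD4+ T cells were enriched by removing other cells with magnetic beads, and the cells were cultured with anti-CD3/CD28 beads for 36 h. XXSry and XX mice, treated alike, gave the remaining 6 libraries and serve below as a second background. Transgene and gonad type go together in that background too. No source used here states whether every library came from its own animal, and the p-values therefore reflect library-to-library spread, part of which may be technical.

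Sry encodes a DNA-binding protein of the SOX family that directs the bipotential gonad of the embryo towards a testis. A mouse with the transgene thus develops testes and one without it ovaries, whatever its sex chromosomes, and cells of either kind of mouse were exposed to the hormones of their gonads until surgery. A CD4+ T cell stimulated through CD3 and CD28 leaves quiescence within hours, turns on early-response genes, and then raises glucose uptake, glycolysis and lipid synthesis before it divides. The hypoxia-inducible factor HIF-1 drives many genes of glucose uptake and glycolysis in activated T cells.

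Sry was read in all libraries as its labels state. XY-Sry libraries held 1571, 1410 and 1575 reads of Sry, against 0, 0 and 1 read in XY- libraries. In sum, 4556 reads in XY-Sry stood against 1 read in XY-, a ratio per total count of 4426 (95% interval 794 to 174900, counting error only). The mean level was 100.5 ± 13.9 CPM in XY-Sry (SD, n = 3), where CPM are read counts scaled to a common library size with TMM factors.

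Total counts ranged from 13426538 to 16710188 in XY-Sry and from 13816220 to 15917143 in XY-, with 93.6% to 93.9% of counts in autosomal genes. Markers of CD4 T cells summed to 4947 to 5040 CPM in XY-Sry and 5074 to 5405 CPM in XY-, and none of the 14 was called by edgeR (DESeq2 called 1, and 4 had an unadjusted p under 0.05). Of 16 myeloid and dendritic cell markers 5 had no read in the 6 libraries, among them Lyz2, Itgax and S100a8, and the list summed to 19.95 to 21.95 CPM in XY-Sry and 18.97 to 21.89 CPM in XY-. B cell markers summed to 325.4 to 344.0 CPM in XY-Sry and 331.5 to 346.8 CPM in XY-, nearly all of it Ighm. Markers of gamma delta and NKT cells summed to 5.93 to 6.84 CPM in XY-Sry and 6.23 to 6.84 CPM in XY-. Those of stroma and endothelium summed to 80.3 to 96.4 CPM in XY-Sry and 80.9 to 105.1 CPM in XY-, nearly all of it Pecam1. Those of erythrocytes and platelets summed to under 2 CPM in each library. The libraries of XY- were less alike than those of XY-Sry. In a principal component analysis of the 6 libraries, XY-Sry scored -9.61, -13.6 and -6.53 on the first component, which held 47.7% of the variance, and XY- scored 0.948, 22.9 and 5.91. XY- replicate 2 stood apart on this axis from the other XY- libraries, and results are therefore also given without it.

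Of 13777 autosomal genes tested, 95 were called between XY-Sry and XY- at an adjusted p under 0.05 (edgeR, Benjamini-Hochberg over all 14585 genes tested), which is 0.69%. Only 14 of them (0.102% of genes tested) were higher in XY-Sry, and 81 (0.588%) were lower. Sry itself and 3 X-linked genes brought the calls over all chromosomes to 99, or 0.679%. The changes were modest, with a median size of 0.617 on the log2 scale and a range of 0.252 to 1.94, and 18 genes (4 higher, 14 lower) exceeded 2-fold. The median over all tested autosomal genes was 0.0011. At an unadjusted p under 0.05 the counts were 685 higher and 1078 lower, together 12.8% of genes. All 95 genes had 3 XY-Sry libraries wholly above or below the 3 XY- libraries, as did 22.8% of all tested autosomal genes. In bulk RNA, fewer cells of a type and less RNA per cell cannot be told apart.

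**Figure D1:**
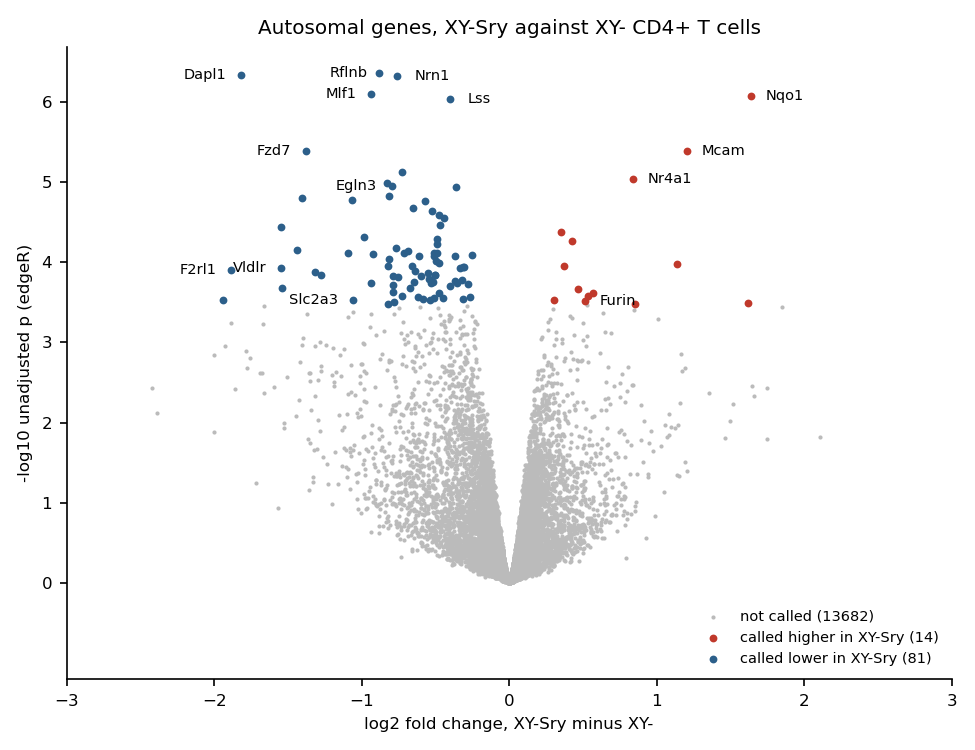
Log2 fold change (XY-Sry minus XY-, x axis) against the unadjusted p-value of edgeR (minus log10, y axis) for 13777 autosomal genes, with 1 point per gene. The 81 genes called lower in XY-Sry (blue) outnumber the 14 called higher (red), and Rflnb, Dapl1 and Nrn1 have the smallest p-values.

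How many genes were called rested on single libraries. Leaving out 1 XY-Sry library gave 13 calls for replicate 1, 7 for replicate 2 and 26 for replicate 3. Leaving out 1 XY- library gave 176 calls for replicate 1, 10 for replicate 2 and 37 for replicate 3. Of the 95 genes, 7 were called in all 6 of these fits and 11 in none of them, and no called gene changed sign. DESeq2 in place of edgeR called 264 autosomal genes, 94 of the 95 among them, and a fit with the 6 libraries alone called 270, all 95 among them.

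The 7 genes called whichever library was left out were Rflnb, Dapl1, Nrn1, Mlf1 and Lss, all lower, and Nqo1 and Mcam, both higher; of these Rflnb and Mlf1 were named after their values were seen. Dapl1 (chromosome 2, 59484653 to 59505020, mm10) is a gene of naive T cells. It was at 4.61, 6.33 and 6.21 CPM in XY-Sry, against 20.03, 20.91 and 19.37 CPM in XY-, a change of -1.82 ± 0.21 on the log2 scale (log2 fold change ± SE throughout; edgeR adjusted p = 0.00174). Each group was narrow beside the gap between them. Rflnb (chromosome 11, 76019194 to 76027782), whose protein binds filamin and helps to organise actin filaments, was at 12.9, 14.7 and 15.3 CPM in XY-Sry, against 26.3, 29.1 and 23.5 CPM in XY-. Its change was -0.88 ± 0.10 (edgeR adjusted p = 0.00174). Replicates of each group lay close together beside the gap between groups, and leaving out 1 library kept the change between -0.96 and -0.80.

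Nrn1 (chromosome 13, 36725361 to 36735131) encodes neuritin, a small membrane-anchored protein first described in neurons. XY-Sry libraries had 46.1, 42.6 and 43.0 CPM, against 70.1, 86.3 and 67.2 CPM in XY- libraries, a change of -0.76 ± 0.09 (edgeR adjusted p = 0.00174). XY- replicate 2 was the highest of the 6, and the groups did not overlap. Mlf1 (chromosome 3, 67374097 to 67400003), an adaptor protein named after its fusion in myeloid leukaemia, was at 7.25, 7.04 and 8.36 CPM in XY-Sry, against 14.98, 13.65 and 14.51 CPM in XY- (-0.93 ± 0.12, edgeR adjusted p = 0.00193). Lss (chromosome 10, 76531588 to 76557138) encodes lanosterol synthase, which closes the sterol ring in cholesterol synthesis. Its levels were 191.2, 186.0 and 189.8 CPM in XY-Sry and 240.0, 263.8 and 246.2 CPM in XY-, a small change of -0.40 ± 0.05 with little spread (edgeR adjusted p = 0.00193). Exons of Nrn1 and Fars2 share 501 bases on opposite strands, and those of Lss and 4930483K19Rik share 381. The sources used here do not state whether counting used strand, and reads in these stretches cannot be assigned.

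Nqo1 (chromosome 8, 107388225 to 107403206), a quinone reductase and textbook target of the oxidative stress factor NRF2, had the highest fold among the named genes that rose. It was at 3.12, 3.87 and 3.40 CPM in XY-Sry, against 1.24, 1.08 and 1.00 CPM in XY-, a change of 1.64 ± 0.20 (edgeR adjusted p = 0.00193). Mcam (chromosome 9, 44134469 to 44142727), the adhesion molecule CD146, was at 4.01, 4.39 and 5.03 CPM in XY-Sry, against 2.00, 1.80 and 1.99 CPM in XY- (1.20 ± 0.17, edgeR adjusted p = 0.00666). Both genes were low in all 6 libraries, and for both every XY-Sry library exceeded every XY- library.

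**Figure D2:**
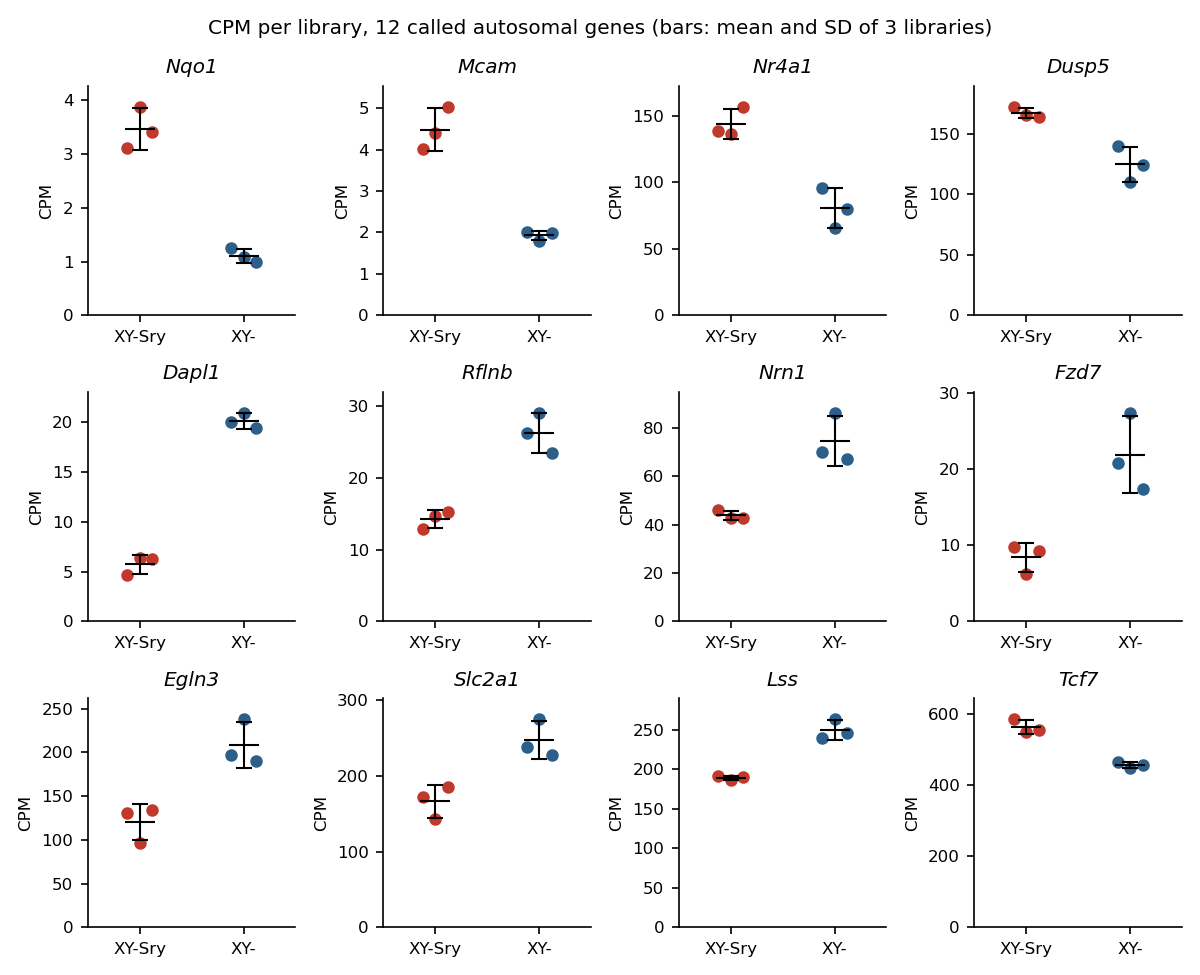
CPM (y axes, starting at 0) of 12 called autosomal genes in each of 3 XY-Sry (red) and 3 XY- (blue) libraries, with mean and SD as bars. In each panel the groups do not overlap; Dapl1 lies at 4.61 to 6.33 CPM in XY-Sry and 19.4 to 20.9 CPM in XY-.

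Among genes that rose were 2 of the 31 tested genes of T cell receptor feedback and early response, and none of that list fell. These 2 are 6.45% of the list, against 0.102% of all tested autosomal genes called higher. Nr4a1, an orphan nuclear receptor induced by T cell receptor signals, was at 138.7, 136.0 and 156.6 CPM in XY-Sry, against 95.9, 65.8 and 79.6 CPM in XY- (0.84 ± 0.13, edgeR adjusted p = 0.011). Dusp5, a phosphatase that inactivates ERK in the nucleus, was at 172.4, 166.0 and 164.4 CPM in XY-Sry, against 139.7, 110.6 and 124.4 CPM in XY- (0.42 ± 0.08, edgeR adjusted p = 0.0276). The median of the list was 0.17, against 0.0011 over all tested autosomal genes, with 20 members above 0 and 11 below it. At an unadjusted p under 0.05, 13 were higher and 4 lower. Nr4a1 was just short of the threshold without XY-Sry replicate 2 (edgeR adjusted p = 0.0503, log2 change 0.87), and Dusp5 was called only without XY- replicate 1, its adjusted p reaching 0.133 without XY- replicate 2. Besides Tcf7, described with the naive T cell genes, the other named genes that rose were Clic5, an intracellular chloride channel protein (1.14 ± 0.22), Plxdc2, a transmembrane protein (0.85 ± 0.18), Lmna, which encodes lamins A and C (0.57 ± 0.12), Eno3, the muscle-type enolase (0.53 ± 0.11), Furin, a proprotein convertase (0.52 ± 0.11), Gtf2ird1, a transcription factor (0.46 ± 0.10), Swap70, a signalling and actin-binding protein (0.37 ± 0.07), and Zfp219, a zinc finger protein (0.35 ± 0.06), with edgeR adjusted p-values from 0.0237 to 0.0487. None of these 8 was called without XY- replicate 2, and Clic5 and Lmna lost the call whichever library was left out.

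Among the genes with the largest falls, F2rl1, the protease-activated receptor PAR2, was at 0.539, 1.42 and 0.961 CPM in XY-Sry, against 2.97, 4.53 and 3.30 CPM in XY-, a change of -1.89 ± 0.37 (edgeR adjusted p = 0.0321). Fzd7, a Wnt receptor of the Frizzled family, was at 9.71, 6.26 and 9.24 CPM in XY-Sry, against 20.9, 27.4 and 17.4 CPM in XY- (-1.38 ± 0.19, edgeR adjusted p = 0.00666). The lowest XY- library of Fzd7 lay well above the highest XY-Sry library, and the call was lost only without XY-Sry replicate 2 (edgeR adjusted p = 0.0539). Also lower were Rgs11, a regulator of G protein signals (-1.55 ± 0.27), Cdhr3, a cadherin-family protein (-1.54 ± 0.32), Atp8a2, a phospholipid flippase (-1.44 ± 0.26), Fam84a (-1.40 ± 0.22), Mt1, a zinc-binding metallothionein (-1.32 ± 0.26), and Adam19, a membrane metalloprotease (-0.98 ± 0.17), with edgeR adjusted p-values from 0.0132 to 0.0388. Without XY- replicate 2 the other 7 genes lost the call that Fzd7 kept, and F2rl1 then had a log2 change of -1.69 and an edgeR adjusted p of 0.182. Atp8a2 shares 241 exon bases with Nupl1 on the same strand, and Rgs11 shares 138 with Arhgdig on the other, so their counts are uncertain. Exons of Adam19 share 587 bases with Gm16033 and 480 with Gm16034, both on the opposite strand. Exons of Emb, Dtx3l, Pgm1, Zfp219, Slc2a1, Necab3, Abhd18, Tpi1 and Mcam, described in other paragraphs, also share 17 to 686 bases with a gene on the opposite strand.

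Among the 30 gene lists, that of oxygen sensing and hypoxia had the largest share of genes called. The lists were chosen with earlier results of these data known, so the shares given for lists are descriptions only. Of 23 tested HIF and hypoxia targets 6 fell and none rose, which is 26.1%, against 0.588% of all tested autosomal genes called lower. Egln3, a prolyl hydroxylase that marks HIF for degradation and is itself induced by HIF, was at 130.7, 96.2 and 133.6 CPM in XY-Sry, against 196.9, 238.2 and 190.4 CPM in XY- (-0.80 ± 0.12, edgeR adjusted p = 0.0112). Vegfa, the vascular endothelial growth factor, was at 23.3, 17.2 and 23.8 CPM in XY-Sry, against 34.1, 45.5 and 33.6 CPM in XY- (-0.81 ± 0.13, edgeR adjusted p = 0.0132). In both genes XY-Sry replicate 2 was the lowest and XY- replicate 2 the highest of the 6 libraries, and the other 4 libraries did not overlap between groups.

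Hilpda, a lipid droplet protein, fell to 20.2, 17.1 and 23.0 CPM in XY-Sry, against 34.4, 37.7 and 30.3 CPM in XY- (-0.77 ± 0.14, edgeR adjusted p = 0.0292). Car12, a membrane carbonic anhydrase, was at 46.2, 47.0 and 47.1 CPM in XY-Sry, against 61.0, 66.5 and 63.4 CPM in XY- (-0.44 ± 0.07, edgeR adjusted p = 0.0177). It had the narrowest spread within groups of these genes. Pdk1, the kinase that restrains pyruvate entry into mitochondria, changed by -0.60 ± 0.12 and Ero1l, an oxidase of protein folding, by -0.55 ± 0.11 (edgeR adjusted p = 0.0341 and 0.0336); these last 2 were named after their values were seen. The median of the 23 genes was -0.44, and 20 of them were below 0. Per library, the mean of the list's log2(CPM + 1), centred on the 6 libraries, was -0.135, -0.426 and -0.114 in XY-Sry and 0.139, 0.430 and 0.106 in XY-. The groups stayed apart, but replicate 2 of each lay farthest out. No member was called without XY-Sry replicate 2 or without XY- replicate 2, when the median of the list was -0.35 and -0.36. Leaving out XY-Sry replicate 1 or 3 left 2 or 3 calls, and leaving out XY- replicate 1 or 3 gave 10 or 4.

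Of 22 tested glycolysis genes, edgeR called 4 lower and 1 higher, which is 22.7%, against 0.69% of all tested autosomal genes called. The median was -0.29, with 18 genes below 0 and 4 above it. Slc2a1, the glucose transporter GLUT1, was at 172.0, 142.9 and 185.6 CPM in XY-Sry, against 238.7, 275.5 and 228.1 CPM in XY- (-0.57 ± 0.09, edgeR adjusted p = 0.0132). Slc2a3, the glucose transporter GLUT3, was at 135.9, 77.5 and 130.9 CPM in XY-Sry, against 207.6, 319.9 and 190.9 CPM in XY- (-1.06 ± 0.23, edgeR adjusted p = 0.0461). Again replicate 2 of each group was the extreme. Slc16a3, the lactate exporter MCT4, was at 172.3, 121.8 and 167.8 CPM in XY-Sry, against 232.0, 283.3 and 227.7 CPM in XY- (-0.69 ± 0.13, edgeR adjusted p = 0.0292). Tpi1, triosephosphate isomerase, changed by -0.37 ± 0.07 (edgeR adjusted p = 0.0362). Eno3 rose, at 103.3, 107.9 and 95.2 CPM in XY-Sry, against 77.2, 56.6 and 77.5 CPM in XY-. No glycolysis gene was called when XY-Sry replicate 1 or 2 or XY- replicate 2 was left out. Leaving out XY-Sry replicate 3 gave 1 call, and leaving out XY- replicate 1 or 3 gave 5 or 2. The median of the list stayed between -0.32 and -0.23 in all 6 fits.

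The 33 tested genes of cholesterol and fatty acid synthesis and uptake had a median of -0.12, with 29 below 0. Of them 5 fell and none rose, which is 15.2%, against 0.588% of all tested autosomal genes called lower. Besides Lss these were Msmo1, a sterol demethylase (-0.25 ± 0.05), Scd1, the desaturase that makes monounsaturated fatty acids (-0.47 ± 0.08), Vldlr, a lipoprotein receptor (-1.54 ± 0.30), and Elovl6, a fatty acid elongase named after its value was seen (-0.28 ± 0.06), with edgeR adjusted p-values from 0.0209 to 0.037. Scd1 was at 157.7, 131.8 and 130.6 CPM in XY-Sry and 193.9, 208.7 and 179.6 CPM in XY-. Msmo1 was at 163.1, 161.4 and 163.2 CPM in XY-Sry and 197.2, 190.3 and 193.2 CPM in XY-. Those groups were narrow and apart, while Vldlr spread from 4.78 to 12.8 CPM in XY-Sry and from 21.1 to 38.2 CPM in XY-. Lss alone stayed called when XY-Sry replicate 2 or 3 or XY- replicate 2 was left out, while 2 genes were called without XY-Sry replicate 1, 5 without XY- replicate 1 and 3 without XY- replicate 3.

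**Figure D3:**
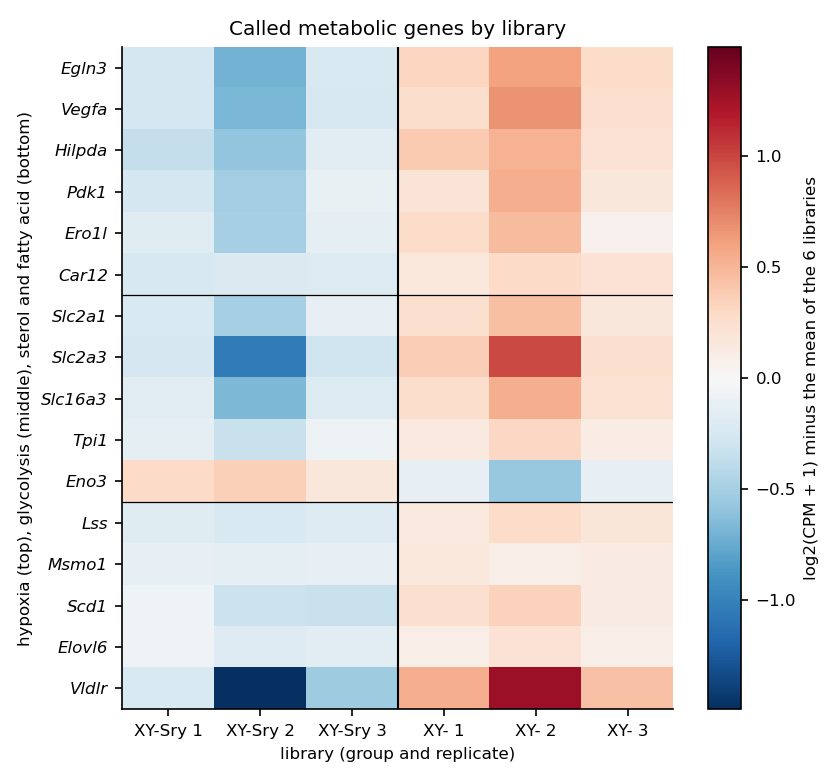
Log2(CPM + 1) minus the mean of the 6 libraries (colour) for 16 called genes of hypoxia, glycolysis and lipid synthesis (down the page) in 3 XY-Sry and 3 XY- libraries (across). All genes but Eno3 are below 0 in each XY-Sry library and above 0 in each XY- library, and replicate 2 lies farthest from 0 within both groups in many of them, as in Vldlr with -1.49 in XY-Sry replicate 2 and 1.27 in XY- replicate 2.

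Further genes of energy and lipid metabolism were among the 81, picked from them after their values were seen. They were Ak4, a mitochondrial adenylate kinase (-0.65 ± 0.11), Gbe1, the glycogen branching enzyme (-0.64 ± 0.12), Pgm1, a phosphoglucomutase (-0.45 ± 0.09), Bsg, the chaperone of lactate transporters (-0.26 ± 0.06), Pcx, pyruvate carboxylase (-0.75 ± 0.15), Soat2, which esterifies cholesterol (-0.71 ± 0.13), Pcyt2, an enzyme of phosphatidylethanolamine synthesis (-0.40 ± 0.08), and Xdh, the xanthine dehydrogenase of purine breakdown (-0.73 ± 0.11). Their edgeR adjusted p-values ran from 0.00988 for Xdh to 0.0461 for Bsg and Pgm1, and none of the 8 was called without XY- replicate 2. Nuclear-encoded respiratory chain genes had a median of 0.04, and edgeR called 0 of 37 (DESeq2 also called 0, and 1 had an unadjusted p under 0.05).

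HIF can bind DNA at the letters ACGTG, called the core here. The promoters of the genes above were searched for these letters alone, on both strands. The windows ran from 250 bases before to 50 after each start in the RefSeq annotation of GRCm38.p6 (the NCBI name of mm10). Other letters that HIF may bind were not searched for and are not marked. Of the 10 hypoxia and glycolysis genes that fell, 9 had a window and 6 of these held a core. The 4 windows with a core nearest to the start are shown, with the core in capitals, as ACGTG on the strand of the gene or CACGT where it lies on the other strand. They are Slc16a3 (chr11:120948817-120949116, plus strand, 2 cores), Slc2a1 (chr4:119108495-119108794, plus strand), the second of the Hilpda windows (chr6:29272376-29272675, plus strand) and Ero1l (chr14:45318523-45318822, minus strand).
Slc16a3: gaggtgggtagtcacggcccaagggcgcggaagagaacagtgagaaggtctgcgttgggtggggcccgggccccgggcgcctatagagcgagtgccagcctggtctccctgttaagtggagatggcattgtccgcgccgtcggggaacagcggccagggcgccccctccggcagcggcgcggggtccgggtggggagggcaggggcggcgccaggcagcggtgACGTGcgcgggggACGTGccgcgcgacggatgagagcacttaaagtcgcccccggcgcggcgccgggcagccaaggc
Slc2a1: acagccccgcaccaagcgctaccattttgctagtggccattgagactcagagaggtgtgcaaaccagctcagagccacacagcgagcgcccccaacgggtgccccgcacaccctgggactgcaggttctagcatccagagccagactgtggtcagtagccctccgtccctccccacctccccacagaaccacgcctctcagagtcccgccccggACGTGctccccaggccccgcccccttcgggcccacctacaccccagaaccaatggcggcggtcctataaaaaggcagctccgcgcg
Hilpda: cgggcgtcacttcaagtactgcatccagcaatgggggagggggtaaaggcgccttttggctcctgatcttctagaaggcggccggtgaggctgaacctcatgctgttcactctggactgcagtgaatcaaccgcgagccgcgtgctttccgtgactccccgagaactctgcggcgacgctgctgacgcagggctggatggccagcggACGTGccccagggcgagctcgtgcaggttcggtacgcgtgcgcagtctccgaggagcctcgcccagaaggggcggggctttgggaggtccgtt
Ero1l: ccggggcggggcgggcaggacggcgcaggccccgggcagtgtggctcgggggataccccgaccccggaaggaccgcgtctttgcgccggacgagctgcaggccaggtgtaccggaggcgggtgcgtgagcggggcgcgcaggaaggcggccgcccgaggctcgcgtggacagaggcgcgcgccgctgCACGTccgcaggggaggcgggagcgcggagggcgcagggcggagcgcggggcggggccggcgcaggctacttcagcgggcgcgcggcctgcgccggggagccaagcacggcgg
The core began 27, 36, 43 and 63 bases before the start in Slc16a3, Slc2a1, Hilpda and Ero1l. For Slc16a3 this is the first of its 2 cores, and the other lies nearer to the start. Over all tested autosomal genes 25.5% of 12363 windows held the core, against 55.6% of 27 windows of the whole HIF and hypoxia list and 48.5% of 33 windows of the glycolysis list. Among all genes that fell the share was 32.9% of 85 windows, and among those that rose 17.6% of 17. The letters AACAAT, which SRY and other SOX proteins can bind, were in 4.71% of windows of genes that fell, in none of the 17 windows of genes that rose and in 5.66% of all windows. A match of letters is a description and not evidence of binding.

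Genes of T cell subsets and stages were mostly not called. Of 20 tested genes of naive and quiescent T cells, Dapl1 fell and Tcf7 rose (10% called, against 0.69% of all tested autosomal genes). Tcf7 encodes the transcription factor TCF-1 and was at 587.7, 551.2 and 556.2 CPM in XY-Sry, against 465.0, 450.0 and 458.3 CPM in XY- (0.30 ± 0.06, edgeR adjusted p = 0.0461). The groups were well apart, but Tcf7 lost the call whichever library was left out, with adjusted p-values of 0.0578 to 0.254 and changes of 0.27 to 0.32. Of 14 tested regulatory T cell genes, 2 surface proteins fell (14.3%, against 0.588% of all tested autosomal genes called lower). Gpr83, an orphan G protein-coupled receptor, was at 120.0, 119.9 and 127.5 CPM in XY-Sry, against 162.8, 263.0 and 218.9 CPM in XY- (-0.81 ± 0.15, edgeR adjusted p = 0.0311). Izumo1r, also known as folate receptor 4, changed by -0.51 ± 0.11 (edgeR adjusted p = 0.0461). XY- libraries differed widely in Gpr83 while XY-Sry libraries were alike. Neither was called when any 1 library other than XY- replicate 1 was left out.

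Single members fell in further lists, where 0.588% of all tested autosomal genes were called lower and 0.102% higher. Tfrc, the transferrin receptor, was at 1750, 1626 and 1648 CPM in XY-Sry and 1988, 2345 and 2081 CPM in XY- (-0.35 ± 0.07), and was the 1 gene that edgeR called among 16 costimulatory and activation receptors, of which 2 were called without XY- replicate 1. Nfil3, a transcription factor of the Th2 list, changed by -0.52 ± 0.10 (1 of 10). Xbp1, a transcription factor of the unfolded protein response, changed by -0.37 ± 0.07 (1 of 22). Gpt2, a mitochondrial alanine aminotransferase, changed by -0.61 ± 0.11 and was called in the ATF4 and amino acid list together with Vegfa, which the hypoxia list holds too (2 of 26). Emb, embigin, another partner of lactate transporters, changed by -0.36 ± 0.06 in the homing and adhesion list, in which Mcam rose (2 of 26). Their edgeR adjusted p-values ran from 0.0112 for Emb to 0.0365 for Tfrc and Nfil3. By edgeR, Mt1 was the 1 call among 11 metallothioneins and zinc transporters, and Nqo1 the 1 call among 21 NRF2 antioxidant genes. DESeq2 called 2 genes in each of the metallothionein, NRF2, costimulatory and unfolded protein lists, and 3 in each of the Th2, ATF4 and homing lists. None of these calls but those of Nqo1 and Mcam held without XY- replicate 2.

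Cd8a, the defining chain of CD8 T cells, also fell. It was at 1.80, 2.45 and 2.15 CPM in XY-Sry, against 6.49, 5.17 and 3.86 CPM in XY- (-1.28 ± 0.25, edgeR adjusted p = 0.034). Cd8b1, the other chain of the receptor, was at 11.1, 12.5 and 10.7 CPM in XY-Sry, against 12.4, 11.2 and 10.2 CPM in XY- (0.02 ± 0.10, edgeR adjusted p = 0.951). The groups thus overlapped in one chain and not in the other, and Cd8a kept its call only when XY- replicate 3 was the library left out. The 12 CD8 T and NK cell markers summed to 49.4 to 62.1 CPM in XY-Sry and 57.9 to 74.0 CPM in XY-, and Klra8 was at 0 in all 6 libraries. Most of each sum was Eomes, at 33.4 to 41.7 CPM in XY-Sry and 35.7 to 50.1 CPM in XY-. Of 7 tested markers edgeR called 1, Cd8a, and DESeq2 called 2. Klrk1, the NKG2D receptor, named after its value was seen, was at 0.419, 0.969 and 0.666 CPM in XY-Sry, against 1.93, 2.37 and 1.93 CPM in XY- (-1.60, edgeR adjusted p = 0.134). Its groups did not overlap, as held for 22.8% of all tested autosomal genes. Klrb1c and Ncr1 of the same list, too low to be tested, went the other way without overlap. Klrb1c was at 0.539, 0.904 and 0.592 CPM in XY-Sry, against 0.414, 0.359 and 0.374 CPM in XY-. Ncr1 was at 0.539, 0.194 and 0.074 CPM in XY-Sry, against 0.0691, 0 and 0 CPM in XY-. Whether cells of this kind had a part in other results was not tested.

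The list with the lowest median held no called gene. Of 43 tested type I interferon response genes 0 were called by edgeR, with a median of -0.50 and 40 below 0; 30 were lower at an unadjusted p under 0.05, and DESeq2 called 4. Dtx3l, a ubiquitin ligase and a member with a high level, differed by -0.14 ± 0.07 (edgeR adjusted p = 0.429). Rtp4, a chaperone induced by interferon and picked for its small p, was at 8.87, 8.78 and 11.9 CPM in XY-Sry, against 16.02, 27.52 and 15.07 CPM in XY- (-0.99 ± 0.24, edgeR adjusted p = 0.0793). The per-library means of the list were -0.371, -0.250 and -0.002 in XY-Sry and 0.174, 0.460 and -0.011 in XY-. XY-Sry replicate 3 and XY- replicate 3 were thus nearly equal, and the groups overlapped. Without XY- replicate 2 the median was -0.31. Windows of this list held the interferon response core GAAANNGAA in 55.0% of 40, against 7.19% of all windows.

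In 9 further lists without a called gene the median was 0.11 or higher. NF-kB factors and targets had a median of 0.22, with 23 of 25 above 0 and 15 higher at an unadjusted p under 0.05, as in Nfkb1, which was at 507.2, 488.5 and 484.9 CPM in XY-Sry and 452.5, 386.9 and 440.7 CPM in XY- (0.21 ± 0.07, edgeR adjusted p = 0.175). Heat shock genes had a median of 0.13 with all 14 above 0, and MYC and ribosome biogenesis genes 0.16 with 27 of 28 above 0. Cytokines and chemokines (21 tested), inhibitory receptors (10) and Th17 genes (12) had medians of 0.23, 0.23 and 0.24. Interferon gamma response genes (24), p53 targets (21) and follicular helper genes (11) had medians of 0.15, 0.13 and 0.11. In each of these 9 lists but the follicular helper list XY- replicate 2 had the lowest mean of the 6 libraries, for example -0.234 for NF-kB and -0.247 for MYC genes. Without that library the medians were 0.06 for MYC, 0.04 for p53, 0.01 for follicular helper, 0.11 for cytokine, 0.09 for interferon gamma, 0.17 for NF-kB, 0.28 for inhibitory receptor, 0.19 for Th17 and 0.11 for heat shock genes. DESeq2 called 3 NF-kB genes, 1 inhibitory receptor and 1 interferon gamma gene, and 0 in the other 6 of these lists, in which 3 to 6 genes had an unadjusted p under 0.05. Medians lay near 0 for DNA replication (0.04 over 32 genes), mitosis (0.01 over 28), survival and death (0.05 over 20) and cytosolic ribosomal proteins (0.00 over 74), where DESeq2 called 1 gene, of the replication list, and 1 to 4 genes of each had an unadjusted p under 0.05. Th1 genes (10) and steroid receptors and steroid-responsive genes (15) had medians of -0.09 and -0.11, of which DESeq2 called 2 and 1 and of which 4 and 2 had an unadjusted p under 0.05; without XY- replicate 2 these medians were -0.11 and -0.02. The highest in level of the mitosis list, Mki67, the proliferation marker, was at 1838, 1767 and 1681 CPM in XY-Sry and 1640, 1847 and 1791 CPM in XY- (0.00 ± 0.07, edgeR adjusted p = 0.993).

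**Figure D4:**
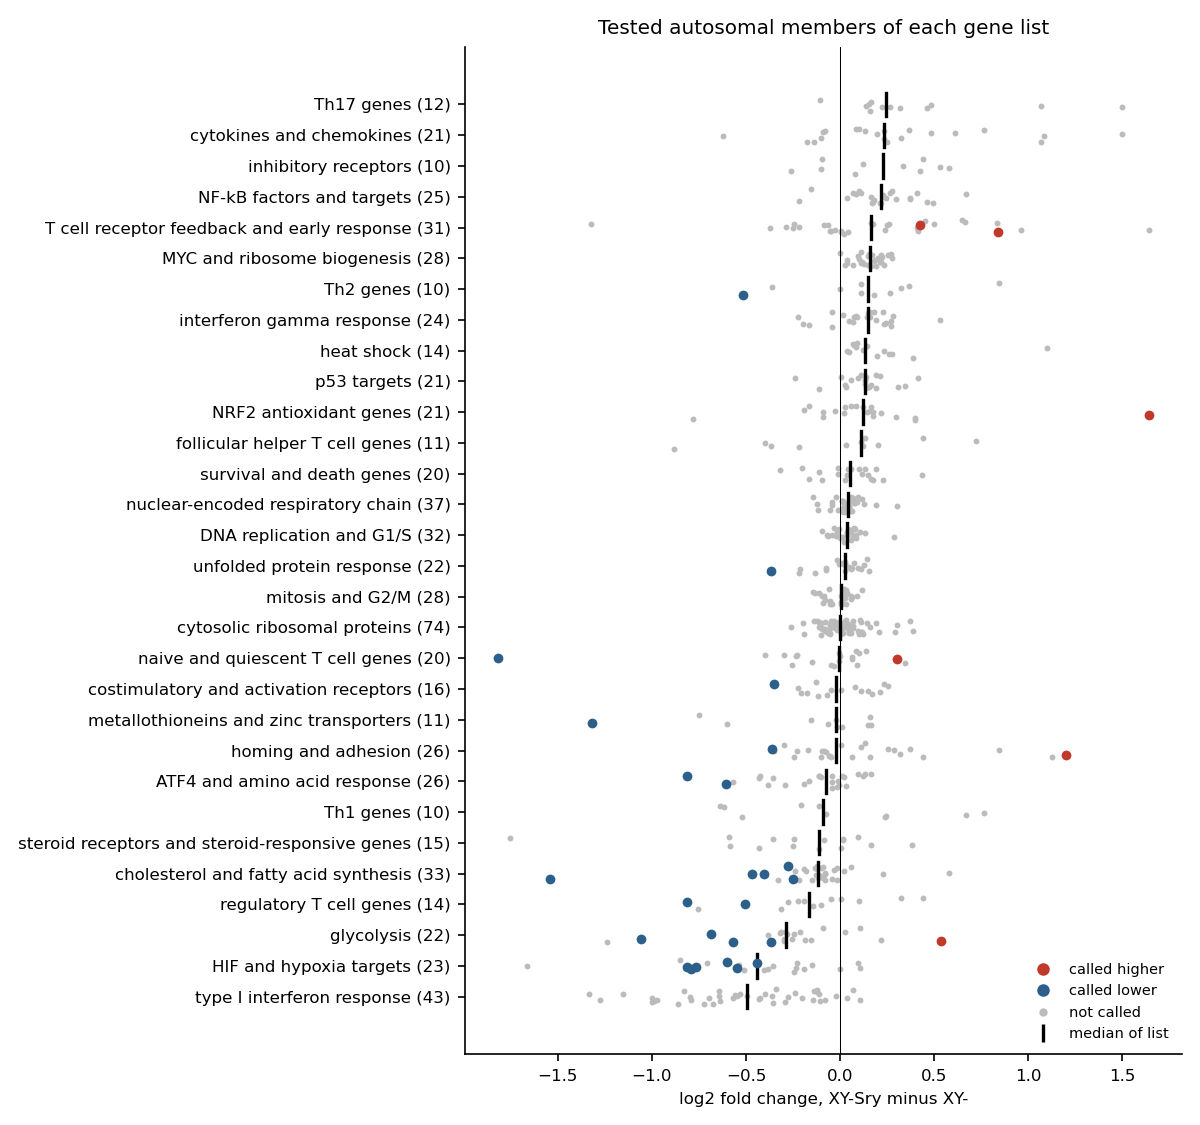
Log2 fold change (XY-Sry minus XY-, x axis) of each tested autosomal member of 30 gene lists (y axis, with the number tested), with the list median as a black bar. Called genes are blue where lower and red where higher; HIF and hypoxia targets (6) and cholesterol and fatty acid genes (5) have the most genes called lower, while the type I interferon list with the lowest median (-0.50) has none called.

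The same comparison was made in a second set of cells, XXSry and XX, in which transgene and gonad type again cannot be told apart. Their group means do not enter the comparison above, but all 12 libraries shared 1 estimate of the spread. Genes with little spread within XXSry and XX were thus called more readily above. The shares of the 95 genes given below are therefore not independent of how these genes were chosen. Among the 13777 genes, 63 were called between XXSry and XX (0.457%), 27 higher and 36 lower. An unadjusted p under 0.05, in either direction, was found for 14%. Of the 95 genes called in XY- cells, 94 had the same sign in XX cells, against 65.6% of all tested autosomal genes. For 92 of the 95 the unadjusted p was under 0.05 in XX cells with the same sign. For 86 the XXSry and XX libraries did not overlap and differed in the same direction as in XY- cells. Of all tested autosomal genes, 16.1% lay apart in XX cells, in either direction, and 5.76% lay apart the same way in both backgrounds. Both comparisons called 32 genes, all with the same sign, which is 33.7% of the calls in XY- cells and 50.8% of those in XX cells. All 63 genes called in XX cells had the same sign in XY- cells. XX replicate 3 stood apart by its share of mitochondrial counts (5.01%, against 2.27% to 2.87% in the other 11 libraries). Without it, 16 genes were called in XX cells, 10 of them among the 95, and 94 of the 95 kept their sign. Leaving out each of the other 5 XXSry and XX libraries gave 1 to 139 calls and 94 to 95 genes of the same sign; 1 was called without XXSry replicate 2, 5 without XXSry replicate 1, 12 without XX replicate 1, 137 without XXSry replicate 3 and 139 without XX replicate 2.

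Sizes were close in some genes and apart in others. Mcam changed by 1.20 ± 0.17 in XY- cells and 1.22 ± 0.18 in XX cells, and Mlf1 by -0.93 ± 0.12 and -0.95 ± 0.12. Dapl1 changed by -1.82 ± 0.21 in XY- cells and -1.37 ± 0.21 in XX cells. The median size of the 95 was 0.617 in XY- cells, in which they were chosen, and 0.477 in XX cells, and 74 were larger in XY- cells. Since the choice favours large values in XY- cells, nothing is read from that order. The difference between the backgrounds was tested gene by gene, and 0 of 13777 genes were called (0%; lowest edgeR adjusted p = 0.9996), while 353 genes (2.56%) had an unadjusted p under 0.05 and DESeq2 also called 0. The standard error of the difference had a median of 0.161 over the 95 genes, so that small differences could not be resolved. Nrn1 was among the 5 genes with the smallest p of the difference, at 43.9 ± 1.9 CPM in XY-Sry and 74.5 ± 10.3 CPM in XY-, and at 64.1 ± 5.3 CPM in XXSry and 77.0 ± 3.7 CPM in XX (SD, n = 3). Its change was -0.76 ± 0.09 in XY- cells and -0.26 ± 0.09 in XX cells, a difference of -0.50 ± 0.13 (unadjusted p = 0.00128 in edgeR's fit, adjusted p = 0.9996 or above). The 1 gene of opposite sign, Necab3, a calcium-binding protein named for that reason, changed by -0.78 ± 0.17 in XY- cells and differed by 0.08 ± 0.16 in XX cells (unadjusted p of the difference = 0.00232 in edgeR's fit); its call in XY- cells was lost whichever library was left out.

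**Figure D5:**
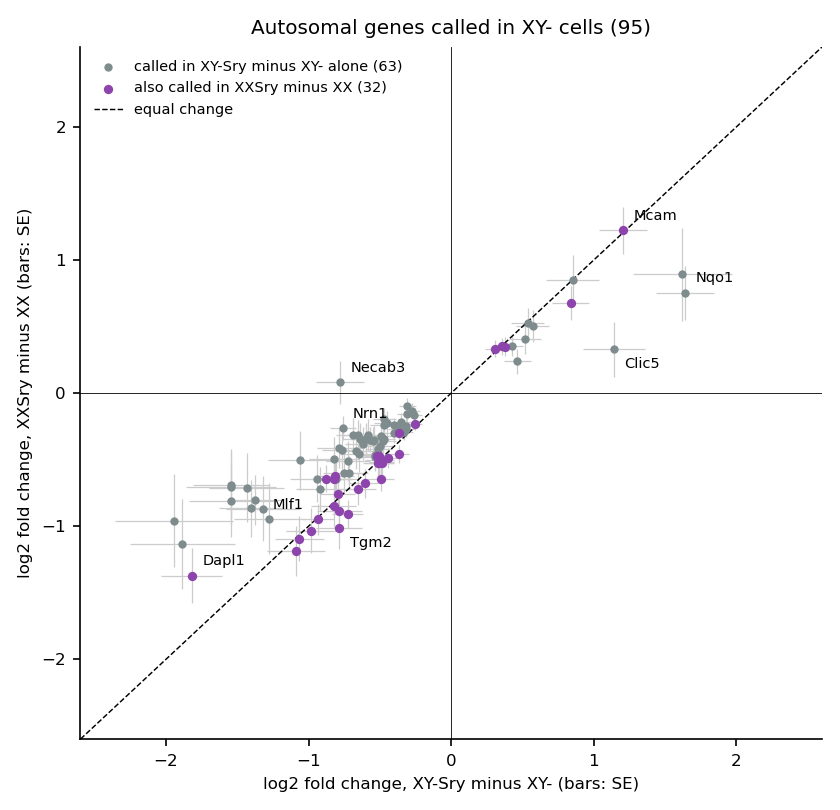
Log2 fold change of the 95 autosomal genes called in XY- cells, as XY-Sry minus XY- (x axis) and as XXSry minus XX (y axis), with standard errors as bars and equal change as a dashed line. All but Necab3 share their sign, 32 (purple) are called in both, and most lie nearer to 0 on the y axis.

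The hypoxia, glycolysis and lipid genes had smaller median changes in XX cells. HIF and hypoxia targets had a median of -0.44 in XY- cells and -0.22 in XX cells, with 6 and 3 genes called lower. Glycolysis genes had medians of -0.29 and -0.15, with 5 genes called in XY- cells and 0 in XX cells (DESeq2 called 4 there, and 11 had an unadjusted p under 0.05), and cholesterol and fatty acid genes -0.12 and -0.03, with 5 and 1 called. No gene of any list was called for the difference, and 1 hypoxia, 0 glycolysis and 3 cholesterol and fatty acid genes had an unadjusted p under 0.05 for it in edgeR. Egln3 changed by -0.80 ± 0.12 in XY- cells and -0.76 ± 0.12 in XX cells, and Slc2a1 by -0.57 ± 0.09 in XY- cells, against a value of -0.35 ± 0.09 in XX cells that was not called (edgeR adjusted p = 0.102). Type I interferon genes had medians of -0.50 in XY- cells and -0.47 in XX cells.

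Called genes were found on all 19 autosomes, but some were close neighbours, picked here after their positions were seen. On chromosome 14, Gm16439, 4930431P03Rik, Gm17173, Ptger2 and Ero1l lay between 44596665 and 45318771. Exons of Gm17173 and Ptger2 share 246 bases on opposite strands. Gpr83 and Izumo1r lay between 14860210 and 14903949 on chromosome 9, and F2rl1 and F2r between 95511732 and 95618487 on chromosome 13. The share of called genes ran from 0.311% of tested genes on chromosome 18 (1 of 322) to 1.57% on chromosome 14 (8 of 508). On chromosome 3, which carries the transgene in this mouse model, 7 of 651 genes were called (1.08%). These were Mlf1, Lmna, Elovl6, Tet2, an enzyme that oxidises methylated cytosine, Ciart, a repressor of the circadian clock, Ppm1l, a protein phosphatase, and Abhd18, the last 4 named after their values were seen. Of these 7 only Lmna was higher in XY-Sry, and only Mlf1 was called whichever library was left out. Most called genes were protein-coding (90 of 95), and 4 were long non-coding RNAs and 1 a pseudogene.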

How the data were processed

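RNA of 12 libraries was analysed from a deposited table of the authors' raw counts, whole numbers of reads for each Ensembl identifier in each library, per the file headers. Per the submitters' processing notes bcl2fastq 2.17 and mm10 were used. Aligner, counter, annotation and strandedness: not given in the sources used here. Of 39017 identifiers 37693 matched GENCODE M21 (mm10) for symbols and positions; the rest held 0.597% of counts. The test was that of edgeR 4.0.16 (R 4.3.3) with TMM factors, filterByExpr (minimum count 10, minimum total 15), 1 term per group over 12 libraries, quasi-likelihood F-test, Benjamini-Hochberg over 14585 genes; the code was tested on simulated data. The standard error is the log2 change over the root of F. The filter left 13777 of 34850 autosomal identifiers; those left out held 0.103% of counts. Alternatives used DESeq2 1.42.0, other filters and scaling, a replicate block and left-out libraries.

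The genotypes, gene lists and motifs were chosen with earlier results of these data known. Genes named in the text come from the 12 largest called changes per direction (no overlap, mean log2 CPM from 1 up, no predicted genes), up to 4 called members per list by p or, with none called, the 2 highest in level (only some of these are printed), and the 5 smallest p of the difference; others are said to be picked afterwards. Replicates differed beyond sampling noise (chi-square per degree of freedom 2.47 to 9.56), so each library counts once. Promoters came from RefSeq tables by symbol or synonym: 9702 genes had a window.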

Additional observations from a re-analysis of the deposited data

Results flagged for a closer look

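Among the genes named by the rules above, 3 had all XY-Sry libraries on one side of the XY- libraries and all XXSry libraries on the other side of the XX libraries, as had 31 of the 13777 tested autosomal genes (0.225%), while 793 (5.76%) lay apart the same way in both. The 3 were among the 5 genes with the smallest p of the difference and so were chosen for it. The difference between backgrounds was tested for each, and none passed the threshold (edgeR adjusted p = 0.9996 or above). Fcer2a, a low-affinity IgE receptor of B cells, differed by -1.31 between XY-Sry and XY-, at 0.452 ± 0.213 CPM in XY-Sry, 1.115 ± 0.473 CPM in XY-, 0.809 ± 0.112 CPM in XXSry and 0.236 ± 0.040 CPM in XX (SD, n = 3; unadjusted p of the difference = 0.000189 in edgeR). It is itself a B cell marker, and the B cell markers together summed to 325.4 to 344.0 CPM in XY-Sry and 331.5 to 346.8 CPM in XY-; their part in the result was not tested. Arl6, a small GTPase of cilia, differed by 0.49 between XY-Sry and XY- and by -0.35 between XXSry and XX (unadjusted p = 0.000367 in edgeR). Mtfr2, a regulator of mitochondrial fission, differed by 0.19 between XY-Sry and XY- and by -0.32 between XXSry and XX (unadjusted p = 0.00132 in edgeR). Fkbp14, a chaperone of the endoplasmic reticulum and also among the 5, differed by -0.80 between XY-Sry and XY-, whose libraries overlapped, and by 1.11 between XXSry and XX (unadjusted p = 0.0012 in edgeR). Its level was at most 1.45 CPM in XY-Sry and XY- libraries, and its exons share 208 bases with Plekha8 on the opposite strand.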

How the results depend on the processing

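The 95 autosomal genes called between XY-Sry and XY- became 681 without a filter on low counts, 264 with DESeq2 and 270 with only these 6 libraries in the fit, and 7 to 176 without 1 library; with other scaling, a mean of at least 50 reads or adjustment over autosomal genes alone the count stayed within 1.5 times. The 63 genes called between XXSry and XX became 593 without a filter, 250 with DESeq2, and 1 to 139 without 1 library, a choice made after seeing the data. The difference between backgrounds had 0 calls, but 20 without a filter. The cause of these shifts was not tested. With a replicate block the comparison gave 104 calls, 85 of them among the 95. Deviations of same-numbered XY-Sry and XY- libraries from their group means correlated at -0.026, -0.21 and -0.048. With 3 libraries a group these values cannot show whether the numbers mark a shared day, litter or batch, which the titles do not state. No called gene changed sign in any of these fits. Of the 95, 68 were called in all 6 fits with another setting, and 5 (Rflnb, Dapl1, Nrn1, Mlf1 and Lss) in all 12 fits; Nqo1 and Mcam were too low for the filter of 50 reads and were called in the other 11. Type I interferon genes, with 0 calls, had 27 called without a filter and 6 with only these 6 libraries. With 3 libraries a group, small changes are missed at these depths.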
